A study of Mus musculus with 3 samples.

Results

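The CC chemokines examined here were *Ccl2*, *Ccl3*, *Ccl4*, *Ccl5*, *Ccl6*, *Ccl7*, *Ccl8*, *Ccl9*, *Ccl17* and *Ccl24*, chosen by name as 10 of the 32285 genes in the feature table, each with transcripts in the kept cells. The study sorted viable CD45+ cells from mouse aortas and read transcripts, surface antibodies and hashtags by CITE-seq (single-cell RNA sequencing with antibody-derived tags) in a single 10x run. *Jak2* WT littermates (5 mice, hashtags 1 to 5) were compared with *Jak2*V617F Myel mice (5 mice, called mutant below), which carried the *Jak2*V617F allele switched on by Cre from the lysozyme M promoter, active mainly but not strictly in myeloid cells, on a C57BL/6 background. In 2 mutant mice (hashtags 7 and 9) an aneurysm was seen on dissection, and the other 3 (hashtags 6, 8 and 10), which the study described as having dilation, had none. No animal received another treatment, both sexes were used in the study, and the age of the sequenced mice was not given in the sources used here. Circulating leukocytes had been labelled in vivo and left out of the sort, and the sorted pool was set to about equal numbers of cells of each genotype, so cell numbers do not compare genotypes.

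CC chemokines are small secreted proteins with a pair of adjacent cysteines that guide leukocytes through G protein-coupled receptors. *Ccl2* and *Ccl7* act on Ccr2 or related receptors and draw monocytes. *Ccl3*, *Ccl4* and *Ccl5* draw monocytes, T cells and NK cells. *Ccl6* and *Ccl9* are rodent chemokines that act on Ccr1. *Ccl17* acts on Ccr4, found on helper T cells and innate lymphoid cells, and *Ccl24* acts on Ccr3, the receptor of eosinophils. Macrophages of the arterial wall are known producers of many of them.

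The genes lie in few places of the genome (GRCm38, GENCODE annotation, all protein coding). *Ccl2* (11:82035571-82037453), *Ccl7* (11:82045712-82047525) and *Ccl8* (11:82115185-82116799) neighbour each other on the plus strand of chromosome 11. *Ccl5* (11:83525778-83530518), *Ccl9* (11:83572919-83578636), *Ccl6* (11:83587882-83593087) and *Ccl3* (11:83647844-83649355) are on the minus strand of the same chromosome, with *Ccl4* (11:83662584-83664683) on the plus strand beside *Ccl3*. *Ccl17* is at 8:94810453-94812036 and *Ccl24* at 5:135569937-135573049.

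RefSeq promoters (GRCm38.p6, 250 bases before to 50 after the start) matched 5 of the 10 genes. Those of *Ccl6* (minus strand, chr11:83593038-83593337), *Ccl9* (minus strand, chr11:83578587-83578886), *Ccl3* (minus strand, chr11:83649329-83649628) and *Ccl8* (plus strand, chr11:82114935-82115234) are shown because these genes separated the macrophage subsets described below. Capitals mark a match to TTCNNNGAA (STAT factors), TGANTCA (AP-1) or the NF-kappaB or IRF consensus, searched on both strands.
Ccl6: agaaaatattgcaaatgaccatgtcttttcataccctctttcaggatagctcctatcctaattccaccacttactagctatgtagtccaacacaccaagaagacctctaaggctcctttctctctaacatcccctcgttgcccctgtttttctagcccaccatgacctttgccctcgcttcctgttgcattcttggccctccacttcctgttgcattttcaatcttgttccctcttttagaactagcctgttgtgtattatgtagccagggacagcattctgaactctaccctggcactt
Ccl9: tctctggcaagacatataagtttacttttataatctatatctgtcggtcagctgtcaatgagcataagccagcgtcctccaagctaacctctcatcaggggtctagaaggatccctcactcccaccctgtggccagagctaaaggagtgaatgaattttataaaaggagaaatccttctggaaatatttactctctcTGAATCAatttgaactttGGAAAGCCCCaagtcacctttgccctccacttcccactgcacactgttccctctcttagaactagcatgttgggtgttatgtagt
Ccl3: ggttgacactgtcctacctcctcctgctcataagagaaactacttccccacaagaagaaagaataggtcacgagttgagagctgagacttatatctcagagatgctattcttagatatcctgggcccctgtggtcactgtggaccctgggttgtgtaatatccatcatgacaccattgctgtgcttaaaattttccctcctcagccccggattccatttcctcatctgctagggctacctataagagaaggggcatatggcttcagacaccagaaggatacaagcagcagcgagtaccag
Ccl8: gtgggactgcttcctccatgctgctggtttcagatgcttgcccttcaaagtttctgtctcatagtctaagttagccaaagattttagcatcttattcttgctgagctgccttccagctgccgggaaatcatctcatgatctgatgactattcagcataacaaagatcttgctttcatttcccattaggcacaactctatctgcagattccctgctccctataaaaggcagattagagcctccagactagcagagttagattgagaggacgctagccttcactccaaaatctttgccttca
In the *Ccl9* window the AP-1 letters and the NF-kappaB letters each matched at a single place, without overlap, and the windows of *Ccl6*, *Ccl3* and *Ccl8* held none of these motifs. The *Ccl17* window held a single STAT match, TTCTTTGAA, and no other. Among all 32851 promoters of the same length, 8.3% held the STAT letters, 4.79% the NF-kappaB letters, 7.81% the AP-1 letters and 3.44% the IRF letters.

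Hashtags assigned 5857 barcodes to 1 mouse, and 4871 cells passed the mitochondrial filter, 112 to 811 per mouse with 1038443 to 9643994 UMIs (unique molecular identifiers, counted transcripts). Clusters were drawn with all chemokine genes left out and are named after the marker list they scored highest for, so each name means "like" that cell type. They held 1803 macrophages, and the sort also brought in 47 non-leukocytes, 34 platelets and 203 thymocytes. A Ccr2+ inflammatory macrophage subset made up 67.4% and 50.8% of the macrophages of the aneurysm mice and 0% to 10.7% in the other 8 mice. Levels are given as CPM, the usual scaling of a gene's UMIs to the total UMIs of the summed cells (3 UMIs among 4732840 are 0.634 CPM), which compares a gene between cells. The 3′ counts are not divided by gene length. Free RNA in the droplets can give UMIs in any cell, and B cells were taken as the reference for it: summed over mice, all 10 genes lay there between 2.11 (*Ccl17*) and 105 CPM (*Ccl4*). For *Ccl4* the mean there over mice was 133 CPM (55.4 to 343, n = 9). It was lower in γδ T cells (39 CPM, n = 4) and in ILC2 (65.4 CPM, n = 9), so B cells were not the lowest class for *Ccl4*.

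The 10 genes fell into distinct sets of source cells. Macrophages carried 82.6% of the *Ccl7* UMIs, 81.3% of *Ccl3*, 80.5% of *Ccl8*, 78.7% of *Ccl2* and 74.9% of *Ccl4*. They carried 60.6% of *Ccl24*, 58.7% of *Ccl9* and 55.1% of *Ccl6*. For *Ccl17* the share was 3.30% and for *Ccl5* 1.82%. For scale, macrophages were 1803 of the 4871 kept cells and held 20456563 of their 49116881 UMIs over all genes. The share of *Ccl2* UMIs from macrophages ranged over mice from 57.6% to 87.2% and that of *Ccl24* from 26.2% to 91.5%, the lowest value of each being mouse 5. That mouse and mouse 10 held 177 of the 210 Saa3+ myeloid cells, a population with 29.2% of all *Ccl24* UMIs.

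**Figure D1:**
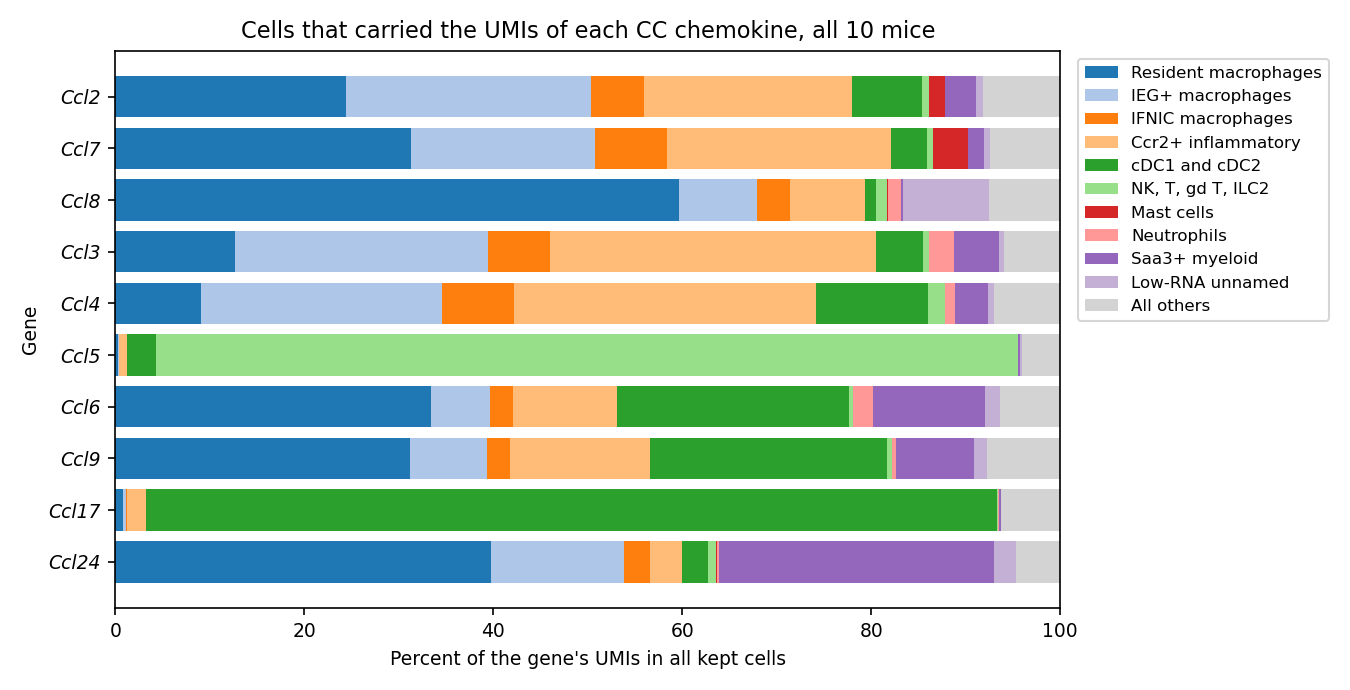
Percent of each gene's UMIs (x axis) carried by each group of cells (colours), over all 4871 kept cells. The *Ccl5* bar is almost wholly NK and T cells and the *Ccl17* bar mostly cDC2 (89.2%), whereas the other 8 bars are mostly macrophage subsets.

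Among the monocyte attractants, *Ccl2* was found in mast cells at the level of the highest macrophage subsets. *Ccl7*, with mice summed, was higher in mast cells than in any macrophage subset. In the 65 mast cells *Ccl2* stood at 3443 CPM, and 64 of them held a *Ccl2* UMI. In the 4 mice with 10 or more mast cells *Ccl2* was 4378, 2085, 3481 and 3859 CPM (mice 5, 6, 7 and 10), against 1657, 2009, 2227 and 2405 CPM in the macrophages of those mice. The mast cells were thus the higher in each of these 4 mice, by a mean of 0.70 on the log2 scale, and an exact two-sided sign-flip permutation test gave p = 0.125, the smallest value 4 mice allow. For *Ccl7* the mast cells were also the higher in all 4 mice, by a mean of 1.81 (same exact test, p = 0.125). *Ccl7* in mast cells was 3763 CPM, with a UMI in 36 of the 65 cells, and 10 cells carried 76.2% of its UMIs, so it was less evenly spread than *Ccl2*, whose 10 highest cells carried 41.9%. Both genes were detected together in 35 mast cells, which follows from *Ccl2* being found in nearly all of them. Over the 65 mast cells the Spearman rho between their depth-scaled UMIs was -0.03, as a description. After thinning to 2000 UMIs per cell, 97.9% of 48 mast cells held *Ccl2* and 54.2% *Ccl7*, against 12% and 5.06% of 534 B cells. The median depths were 2821 UMIs in mast cells and 5390 in B cells.

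Within macrophages *Ccl2* was highest in the IEG+ (immediate-early gene) subset at 3651 CPM and the IFNIC (interferon-inducible) subset at 3013 CPM. *Ccl7* was highest in IFNIC at 2015 CPM with mice summed. Over the 4 mice with 10 or more IFNIC cells it ranged from 161 to 4818 CPM there, against 743 to 2785 CPM in IEG+ macrophages (n = 9). Both were lower in the Res-S100hi resident subset, at 813 CPM for *Ccl2* and 596 CPM for *Ccl7*. Across 21 cell types and subsets, *Ccl7* was the gene most like *Ccl2* (Pearson r = 0.95 over class means, a description, since the classes share libraries), and *Spred1* (r = 0.92) and *BC005537* (r = 0.91) came next. Across single macrophages thinned to 2000 UMIs, *Ccl2* and *Ccl7* had a median Spearman rho of 0.44 over 10 mice (0.25 to 0.53), again as a description.

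Among the named macrophage subsets, with mice summed, *Ccl8* was highest in the resident ones. It was 396 CPM in Res-MGL1hi, 286 CPM in Res-Txnip hi and 221 CPM in Res-S100hi, and 47 CPM in Ccr2+ inflammatory macrophages. As a mean over mice it was 175 ± 150 CPM in IFNIC (SD, n = 4), 166 ± 161 CPM in Res-S100hi (n = 8) and 77.4 ± 49.1 CPM in IEG+ macrophages (n = 9). Its transcripts were concentrated in few cells: the 181 highest of 1803 macrophages carried 86.9% of them. The genes most like it over classes were *Folr2* (r = 0.88) and *Lyve1* (r = 0.86), both known markers of resident arterial macrophages. *Ccl8* also stood at 526 CPM in the 335 unnamed low-RNA cells.

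Among macrophages *Ccl3* and *Ccl4* were highest in the IFNIC, IEG+ and Ccr2+ inflammatory subsets and, unlike *Ccl2*, they were also high in neutrophils. *Ccl4* was 7449 CPM in IFNIC, 6517 CPM in IEG+ and 4150 CPM in Ccr2+ inflammatory macrophages, and *Ccl3* was 2509, 2650 and 1736 CPM in the same subsets. The IFNIC values varied widely over the 4 mice with 10 or more such cells, from 1834.5 to 15034.5 CPM for *Ccl4* and 471 to 5977 CPM for *Ccl3*. Neutrophils held *Ccl3* at 1621 and *Ccl4* at 1690 CPM, with 78% of the *Ccl3* UMIs in 10 of 111 cells. *Ccl4* alone was also high in NK cells (1644 CPM, against 129 CPM for *Ccl3*), in cDC1 (1187 against 64 CPM) and in cDC2 (1569 against 285 CPM). The pair was the most strongly related of all pairs of members in single macrophages, with *Ccl5* and *Ccl17* left out of the pairs (median rho 0.62, 0.53 to 0.75 over 10 mice).

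*Ccl5* was a transcript of lymphocytes. NK cells held it at 9643 CPM and T cells at 1780 CPM, and these carried 44.6% and 45.3% of its UMIs although NK cells were 1.56% of the kept cells. Among NK cells 75 of 76 held a *Ccl5* UMI, whereas 35.8% of T cells did (2.5% of B cells), and 32.2% of the T cell UMIs lay in 10 cells. In T cells the level ranged from 680 to 2911 CPM over the 10 mice, and the genotypes overlapped. γδ T cells held it at 3.40 CPM. The summed B cell level of 25.3 CPM was set by mouse 5 (73.3 CPM, 88 of the 96 UMIs), and the median over the 9 mice with 10 or more B cells was 3.69 CPM. *Gm2682* (r = 0.90), *Ifng* (r = 0.89), the gene of interferon gamma, and *Klrc2* (r = 0.88), an NK cell receptor gene, followed its pattern most closely.

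*Ccl6* and *Ccl9* had nearly the same sources, which included cDC2 (23.6% and 24.9% of their UMIs) as well as resident macrophages. Saa3+ myeloid cells carried 11.8% and 8.32%, and Ccr2+ inflammatory macrophages 11% and 14.8%. The 27 monocytes, at most 8 in a mouse, carried 1.38% and 1.46%. *Ccl6* was 2355 CPM in Res-S100hi, 1860 CPM in Res-MGL1hi, 1821 CPM in monocytes and 1733 CPM in cDC2. *Ccl9* was 1129, 835, 971 and 925 CPM in the same classes. The pair parted in neutrophils, where *Ccl6* was 1556 and *Ccl9* 141 CPM, and in cDC1, where *Ccl6* was 271 and *Ccl9* 24 CPM, the B cell level of *Ccl9* being 23.5 CPM. *Ccl9* was higher in cDC2 than in macrophages in 9 of 9 mice, by a mean of 0.54 on the log2 scale (exact sign-flip permutation, two-sided, p = 0.00391, the smallest 9 mice allow). Its adjusted p over 82 pairs of neighbouring cell types was 0.16 by the same exact test. With so many pairs, a few at this smallest p cannot pass the adjustment. *Lyz2*, the lysozyme gene of myeloid cells, was among the 3 genes most like each of them (r = 0.94 for both).

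*Ccl17* was a transcript of few dendritic cells. cDC2 carried 89.2% of its 1272 UMIs, and 10 of the 367 cDC2 carried 81.7% of the UMIs found there. Per mouse the cDC2 level was 342, 126, 0, 0 and 7.44 CPM in WT and 151, 493, 0, 39.8 and 81.4 CPM in mutant mice (hashtags 1 to 5 and 6 to 10), so each genotype included a mouse at 0 and the ranges overlapped. *Aldh1a2* (r = 0.87), which makes retinoic acid in dendritic cells, and *Ccl22* (r = 0.83), the other known Ccr4 ligand and its genomic neighbour, were among the 3 genes most like it, after *Wnt11* (r = 0.89).

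*Ccl24* came mostly from Saa3+ myeloid cells (29.2% of its UMIs), Res-MGL1hi (21.3%), IEG+ (14.1%), Res-Txnip hi (9.89%) and Res-S100hi (8.53%) macrophages. It was 542 CPM in Res-MGL1hi, 497 CPM in Res-Txnip hi and 442 CPM in Res-S100hi cells, 385 CPM in IEG+ and 282 CPM in IFNIC macrophages and 688 CPM in the Saa3+ myeloid cells, and 47 CPM in Ccr2+ inflammatory macrophages, 6 CPM in monocytes and 46 CPM in cDC2. In the Saa3+ cells of mice 5 and 10, the 2 mice with most of them, it was 897 and 655 CPM. In the 15 Saa3+ cells of mouse 8 it was 250 CPM. Over these 3 mice the Saa3+ cells were above the macrophages in 2 (exact two-sided sign-flip permutation test, p = 0.5, the smallest possible being 0.25). *Ltc4s* (r = 0.94), the leukotriene C4 synthase gene, and the complement genes *C1qc* (r = 0.92) and *C1qa* (r = 0.91) were most like it.

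Over cell types with 10 or more cells in at least 3 mice, neighbours in the order of levels were compared. The exact sign-flip test could be run on 82 pairs, and none passed after adjustment (smallest adjusted p = 0.16, exact permutation). No pair shared more than 9 mice, and this adjusted p belonged to pairs already at the smallest p that 9 mice allow (0.00391, exact). A few such pairs cannot pass the adjustment over 82 pairs, so passing none does not show that neighbours had equal levels. At an unadjusted level of 0.05 there were 3: *Ccl2* in macrophages over cDC2, *Ccl9* in cDC2 over macrophages and *Ccl24* in cDC2 over ILC2. Most pairs shared only 3 or 4 mice, with which this test cannot reach 0.05 (smallest p 0.25 and 0.125, exact), so the data do not settle the order of those neighbours. *Ccl2*, for example, was 644.7 ± 347 CPM in cDC2 (SD, n = 9) and 544 ± 347 CPM in proliferating cells (n = 4), and 58.9 ± 16.9 in B cells (n = 9) and 55.5 ± 25.6 in T cells (n = 10).

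Ccr2+ inflammatory macrophages differed from resident macrophages in 6 of the 8 members that passed the filter on low counts. The comparison was made within the 5 mice with 10 or more cells of both (1 WT mouse, 2 with dilation and 2 with aneurysm). *Ccl4* rose by a log2 fold change of 2.20 ± 0.23 (SE, edgeR quasi-likelihood test, adjusted p = 5.45e-07) and *Ccl3* by 2.00 ± 0.22 (adjusted p = 1.27e-06). *Ccl24* fell by 2.55 ± 0.34 on the log2 scale (adjusted p = 1.28e-05), *Ccl8* by 2.16 ± 0.63 (adjusted p = 0.0176), *Ccl6* by 1.58 ± 0.22 (adjusted p = 2.06e-05) and *Ccl9* by 0.91 ± 0.16 (adjusted p = 0.000239). *Ccl2* (0.44 ± 0.23, adjusted p = 0.185) and *Ccl7* (-0.04 ± 0.27, adjusted p = 0.949) did not pass the test, although *Ccl2* was called without mouse 9 (0.75, adjusted p = 0.0116). The median over the 8 members was -0.47, against -0.02 over all genes. Of all 6866 genes tested, 11.7% were called higher and 11% lower. The clusters were drawn in the same cells without chemokine genes, so these values say how repeatable the difference was over mice and not that the subsets were found independently. The *Ccl8* call was lost without the mouse as a block (-1.51, adjusted p = 0.161) and when any of mice 6, 7, 9 or 10 was left out (adjusted p = 0.0638 to 0.14). Mouse 2 alone held *Ccl8* high in its 12 inflammatory cells, at 709 CPM, against 6.69 to 43.1 CPM in the other 4 mice.

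*Ccl24* per mouse showed the size of this step. In inflammatory macrophages it was 167, 286, 57.7, 19.7 and 107 CPM in mice 2, 6, 7, 9 and 10, and in resident macrophages of the same mice 545, 614, 649, 402 and 467 CPM. The groups did not overlap. For *Ccl4* the inflammatory values were 3952, 3565, 5892, 2203 and 6896 CPM and the resident values 1571, 432, 1106, 995 and 1375 CPM, again without overlap. How many of all genes separate these 2 classes in this way was not counted, and the classes were themselves drawn by expression. Of the receptors in the pathway list, *Ccr2* (3.15 ± 0.28) and *Ccrl2* (1.28 ± 0.19) rose in the inflammatory cells, *Ccr1* did not pass the test, and *Ccr2* was itself a marker of the subset. All 8 resident macrophage markers were lower, and of 11 immediate-early and heat-shock genes 6 were lower and 0 higher.

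Within the resident macrophages, Res-MGL1hi cells held more of 6 of the 8 tested members than the Res-Txnip hi and Res-S100hi cells together in the same 8 mice. *Ccl2* rose by a log2 fold change of 1.68 ± 0.13 (edgeR, adjusted p = 1.13e-09), *Ccl7* by 1.24 ± 0.12 (adjusted p = 4.72e-08), *Ccl4* by 1.23 ± 0.17 (adjusted p = 1.08e-05), *Ccl8* by 1.00 ± 0.21 (adjusted p = 0.00147), *Ccl3* by 0.91 ± 0.18 (adjusted p = 0.00111) and *Ccl24* by 0.39 ± 0.09 (adjusted p = 0.00459). *Ccl6* (-0.01 ± 0.08) and *Ccl9* (-0.10 ± 0.08) did not pass the test. The median over the 8 members was 0.95, against 0.01 over all genes. Of 5054 genes, 9.77% were called higher and 6.81% lower. The 11 immediate-early and heat-shock genes were all higher in Res-MGL1hi cells, by 1.13 to 2.06 on the log2 scale, and the cluster scored nearly as high for the IEG+ marker list (0.61) as for its own (0.71). Such genes are known to respond to tissue digestion, which was run for 45 minutes at 37 °C in the labels' protocol, and their part in the chemokine difference was not tested. Without the mouse as a block 3 members were called. Against Res-Txnip hi cells alone the *Ccl3* and *Ccl24* calls were lost (adjusted p = 0.12 and 0.221) and *Ccl6* and *Ccl9* were called higher, by 0.39 and 0.30.

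**Figure D2:**
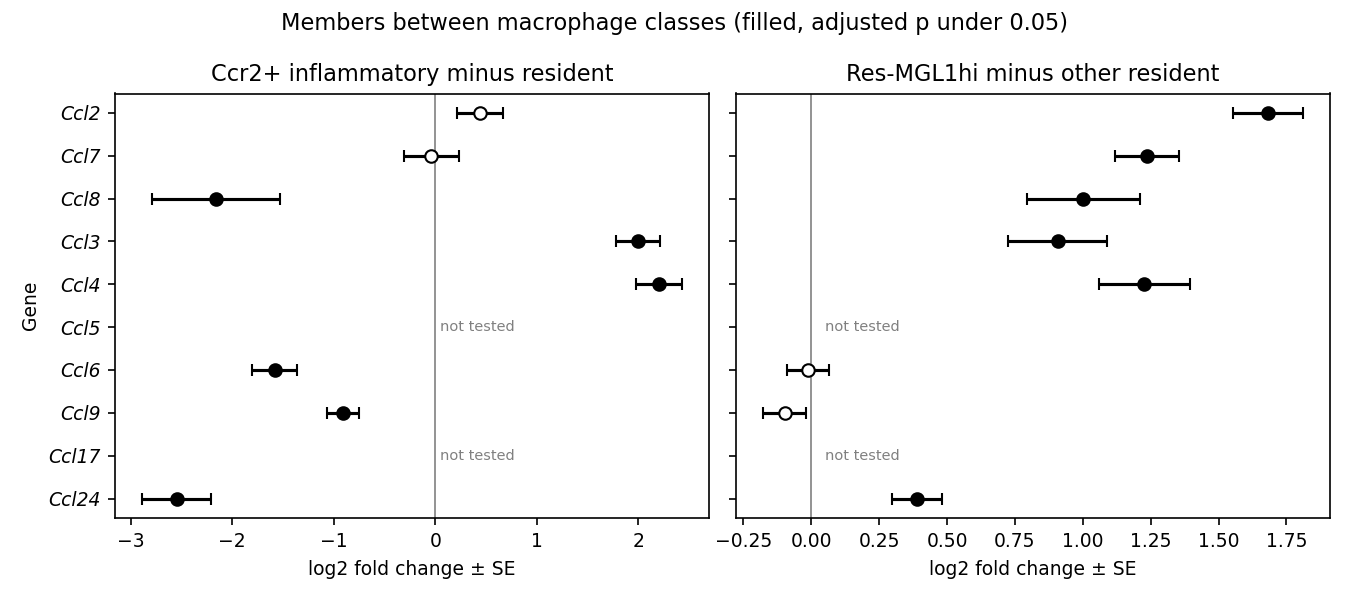
Log2 fold change with its standard error (x axis) of each CC chemokine (rows) between Ccr2+ inflammatory and resident macrophages (left, 5 mice) and between Res-MGL1hi and the other resident macrophages (right, 8 mice), from edgeR with the mouse as a block. Filled points passed an adjusted p of 0.05, and *Ccl3* and *Ccl4* are the only filled points to the right of 0 in both panels.

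The comparison of genotypes asked whether mutant myeloid cells altered chemokine transcripts. In all macrophages none of the 8 tested members was called between mutant and WT mice by edgeR, where 0% of 8193 genes were called, and none reached an unadjusted 0.05 or was called by DESeq2. Of all 8193 genes, 973 reached an unadjusted 0.05. The median log2 fold change over the 8 was -0.27, against -0.01 over all genes. The log2 fold changes ran from -0.45 ± 0.27 for *Ccl24* to 0.33 ± 0.18 for *Ccl9*. *Ccl3* was 1354 ± 401 CPM in mutant and 1831 ± 273 CPM in WT mice (SD, n = 5 each), a log2 fold change of -0.39 ± 0.19 (adjusted p = 0.437), and *Ccl4* was 3168 ± 1091 and 4333 ± 806 CPM (-0.41 ± 0.21, adjusted p = 0.469). With the Ccr2+ inflammatory cells left out *Ccl3* was called lower, by 0.79 on the log2 scale (adjusted p = 0.0434). *Ccl5* and *Ccl17* did not pass the filter on low counts.

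Resident macrophages (the Res- subsets, without IEG+ cells) of mutant mice held more *Ccl2* and *Ccl7*. In all macrophages the means ran the other way, and neither gene was called. There *Ccl2* was 2038 ± 368 CPM in mutant and 2262 ± 347 CPM in WT mice (SD, n = 5 each), and *Ccl7* 996 ± 197 and 1239 ± 475 CPM. In the resident cells *Ccl2* was 1475, 1302, 1064, 961 and 893 CPM in the WT mice (hashtags 1 to 5) and 1390, 2515, 1766, 1898 and 1614 CPM in the mutant mice (hashtags 6 to 10). Only mouse 6 lay within the WT range. The log2 fold change was 0.71 ± 0.15 (edgeR, adjusted p = 0.0156). *Ccl7* was 881, 679, 563, 641 and 446 CPM in WT and 568, 1899, 983, 1393 and 1045 CPM in mutant mice, a log2 fold change of 0.89 ± 0.23 (edgeR, adjusted p = 0.0496). Here too only mouse 6 overlapped with WT, and the 2 aneurysm mice were the highest. Of 6836 genes 1.62% were called higher and 0.497% lower, the other 6 tested members were not called, and the median over the 8 was 0.25 against -0.02 over all genes.

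The resident cells of the genotypes were not the same mix. Res-MGL1hi cells made up 12.7%, 47.9%, 26.5%, 16% and 28.1% of the resident macrophages of the WT mice and 62.3%, 48.4%, 50.6%, 62.3% and 60.6% of those of the mutant mice. Within Res-MGL1hi cells *Ccl2* was 1720 ± 261 CPM in 3 WT and 2497 ± 435 CPM in 5 mutant mice, a log2 fold change of 0.51 (edgeR, adjusted p = 0.245), and *Ccl7* had a log2 fold change of 0.87 (adjusted p = 0.245). Within the other resident macrophages the log2 fold changes were -0.032 for *Ccl2* and 0.29 for *Ccl7*, both uncalled (edgeR, adjusted p = 0.995 and 0.886). Neither gene was called within either class, but the Res-MGL1hi fit had only 3 WT mice. The resident class also left out the IEG+ subset, which was 17% to 46.6% of the macrophages of WT and 12% to 31.9% of those of mutant mice. *F13a1*, *Lyve1* and *Timd4* were found in 96.5%, 80.7% and 31.3% of IEG+ cells, against 99.9%, 96.9% and 63.8% of resident cells. The part of the cell mix in the genotype difference was not tested. The summed level of the 11 immediate-early and heat-shock genes in resident macrophages was 15903 to 30257 CPM in WT and 26793 to 30995 CPM in mutant mice. Their median log2 fold change was 0.47, against -0.02 over all genes. An unadjusted 0.05 was reached by 8 of the 11, and by 953 of all 6836 genes. *Junb* alone was called higher (0.73 ± 0.15). The part of these genes in the result was not tested. The *Ccl7* call was also lost when any of mice 1, 3, 4, 5, 7, 8, 9 or 10 was left out (adjusted p = 0.0507 to 0.133), whereas that of *Ccl2* held without each mouse in turn. The *Ccl2* call was lost with another demultiplexing method, MULTIseqDemux (0.36, adjusted p = 0.392), and after thinning to 2000 UMIs per cell (0.60, adjusted p = 0.115). The *Ccl7* call was lost with both as well (adjusted p = 0.403 and 0.224), and by DESeq2 (adjusted p = 0.0954).

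**Figure D3:**
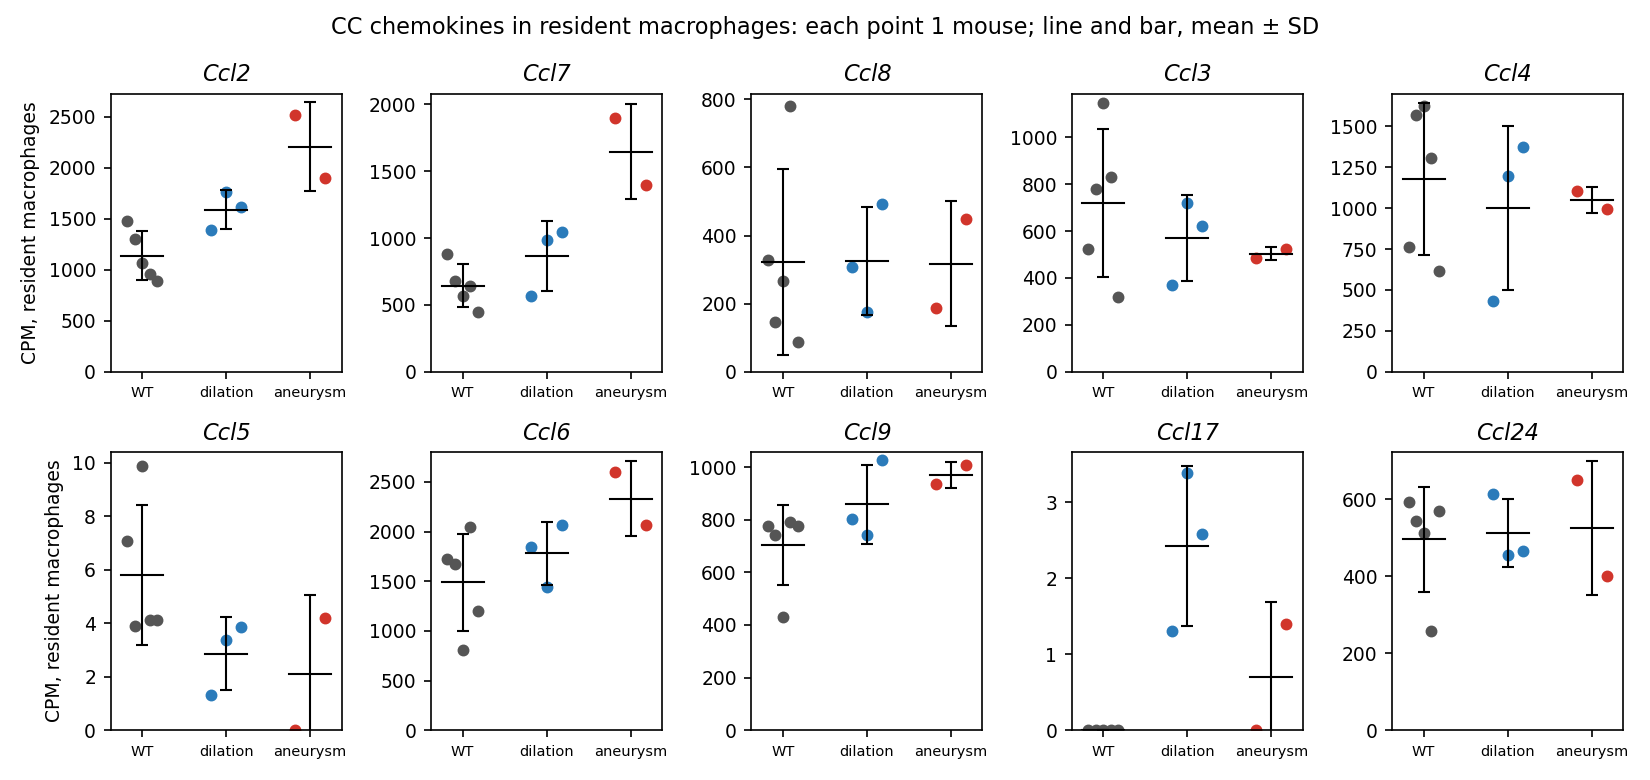
CPM of each CC chemokine in resident macrophages (y axes, each from 0), with a point for each mouse and the mean ± SD of the WT (5), dilation (3) and aneurysm (2) mice. For *Ccl2* and *Ccl7* the aneurysm points (1898 and 2515, and 1393 and 1899 CPM) lie above all WT points. So do 2 of the 3 dilation points of each gene (1614 and 1766, and 983 and 1045 CPM). The aneurysm points of *Ccl6* and *Ccl9* also lie above all WT points, whereas *Ccl8* and *Ccl24* overlap between groups. Aneurysm mice were not tested against WT mice, and how many of all genes separate them in this way was not counted.

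The mutant mice were then split by aortic lesion. Between dilation and WT mice no member was called in macrophages by edgeR, where 0.0221% of 9040 genes were called, and 0 by DESeq2. An unadjusted 0.05 was reached by 3 of the 9 tested members and by 743 of all 9040 genes. Between aneurysm and dilation mice, *Ccl24* was lower, at 214 and 147 CPM in the aneurysm mice and 498, 339 and 358 CPM in the dilation mice, a log2 fold change of -1.07 ± 0.26 (edgeR, adjusted p = 0.018). The call was lost without mouse 6 (edgeR, adjusted p = 0.0689) or without mouse 9. In resident macrophages alone the same difference was 0.02 ± 0.25 (edgeR, adjusted p = 0.999). The share of inflammatory cells, which were low in *Ccl24*, was 67.4% and 50.8% in the aneurysm mice and 2.38% to 10.7% in the dilation mice. The part of this share in the *Ccl24* difference was not tested. Of 9040 genes 6.14% were called higher and 4.42% lower, with all 8 resident macrophage markers and 5 of the 11 immediate-early and heat-shock genes among the lower.

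*Ccl5* was the other member called between these groups, at 14.4 and 20.5 CPM in the aneurysm mice against 2.88, 4.36 and 4.66 CPM in the dilation mice, a log2 fold change of 2.14 ± 0.30 (edgeR, adjusted p = 0.000506). Of its 236 UMIs in macrophages 66.9% lay in 10 cells, and 78 lay in the 16 cells of an unnamed cluster with T cell genes. Without that cluster the log2 fold change was 1.44 (edgeR, adjusted p = 0.0353). The B cells of the aneurysm mice held *Ccl5* at 7.39 CPM (mouse 7, 2 UMIs) and 0 CPM (mouse 9, 12 cells). Over all 10 mice 4.49% of macrophages and 2.5% of B cells held a *Ccl5* UMI, at median depths of 10534 and 5390 UMIs, and after thinning to 2000 UMIs the share was 1.12% in both. The part of free RNA in the difference was not tested. The call was lost with chemokine genes kept in the clustering (1.36, adjusted p = 0.054). The receptors *Ccr2* (2.09 ± 0.47) and *Ccr1* (0.94 ± 0.19) were higher in the same comparison.

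In resident macrophages no member was called between aneurysm and dilation mice by edgeR, where 0.0257% of 7788 genes were called. *Ccl7* had the largest log2 fold change of the members, 0.91 ± 0.24 (adjusted p = 0.557), followed by *Ccl2* with 0.46 ± 0.18 (adjusted p = 0.999). These 2 of the 8 tested members were under an unadjusted 0.05, as were 304 of all 7788 genes, and DESeq2 called 0 members.

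Outside macrophages, genotype could be tested in B cells, T cells, cDC2 and ILC2. The filter on low counts left 2 members to test in B cells, 3 in T cells, 8 in cDC2 and 1 in ILC2. None of these was called by edgeR. Of all genes, 0% of 3303 were called in B cells, 0% of 3184 in T cells, 0.0243% of 4121 in cDC2 and 0% of 1870 in ILC2. Under an unadjusted 0.05 there were 2 members in cDC2 and 0 in the other 3 types. Of all genes, 333 were under it in cDC2, 149 in B cells, 219 in T cells and 116 in ILC2. *Ccl5* in T cells had a log2 fold change of -0.01 ± 0.29. In cDC2, *Ccl7* was 98.7, 34, 22.8 and 26 CPM in WT mice 1, 2, 4 and 5 and 78.3, 239, 350, 94.2 and 177 CPM in the mutant mice, with WT mouse 1 inside the mutant range. Its log2 fold change was 1.97 ± 0.50 (edgeR, adjusted p = 0.269), and DESeq2 called it (adjusted p = 0.0116). Its 963 cDC2 UMIs lay to 67.8% in 10 cells. *Ccl24* in cDC2 had a log2 fold change of 1.92 ± 0.63 (adjusted p = 0.395), at 0 to 30.6 CPM in WT and 26.7 to 93.6 CPM in mutant mice, against 10.8 CPM in B cells. The genotype effect in macrophages was set against that in cDC2 in a model with an interaction term, which called 0.0354% of 8477 genes and none of the members (*Ccl7*, -2.31 ± 0.58, edgeR, adjusted p = 0.313). That model had no term for the mouse, although the sums of both classes came from the same 9 mice.

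Of the 11 other CC chemokines looked for, 10 had at least 1 UMI, and few were abundant. *Ccl12*, a murine Ccr2 ligand, was highest in IFNIC macrophages at 1888 CPM. In all macrophages it was 437 to 1849 CPM in WT and 328 to 442 CPM in mutant mice, with a log2 fold change of -1.40 ± 0.32 that did not pass the test (edgeR, adjusted p = 0.211). *Ccl22* was 156 CPM in cDC1 and 114 CPM in cDC2, and *Ccl1*, a Ccr8 ligand, 285 CPM in ILC2. Among the 14 receptors, all with at least 1 UMI, *Ccr2* was highest in monocytes (1038 CPM), *Ccr1* in neutrophils (902 CPM), *Ccr7* in B cells (590.4 CPM) and *Ccr9* in thymocytes (1338 CPM). *Ccr4* (49.5 CPM) and *Ccr8* (33.2 CPM) were highest in ILC2. *Ccr3*, the receptor of *Ccl24*, had 13 UMIs in all kept cells, 8 of them in ILC2.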

How the data were processed

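The deposited UMI counts were made by the authors with Cell Ranger 6.0.2 on the mm10 genome, and the submitters' processing notes name Seurat 3.0.0. The counts of genes, antibodies and hashtags of all 10 mice form 1 matrix, and mice were assigned with HTODemux (quantile 0.99) in Seurat 5.3.0, the hashtag of each mouse coming from the labels' protocol. The 2265 barcodes with more than 1 hashtag and 349 with none were left out, and no further doublet caller was run. Cells with over 10% mitochondrial UMIs were removed. Clusters used 2000 variable genes without chemokines, 20 principal components and marker lists. The 37 high-UMI B cells were kept apart after the data were seen.

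UMIs were summed per mouse and class (10 or more cells) and tested with edgeR 4.0.16 (filterByExpr, TMM, quasi-likelihood, Benjamini-Hochberg, 0.05) in R 4.3.3. Classes of the same mouse were compared with the mouse as a block, the pairing coming from the same animal. The exception was the interaction model of macrophages and cDC2, which had no term for the mouse. DESeq2 1.42.0 was an alternative. The fits were tested on simulated data. Mice are separate animals of 1 pooled run. Intervals and floors cover counting error only.

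The text names all 10 members, the other CC chemokines and receptors that were called or highest in a class, and for each member the 3 genes of highest Pearson r among 6972 genes of at least 50 CPM in a class. The members and lists were chosen with earlier results of these data known. Of the receptors, 1 is not reported here.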

Additional observations from a re-analysis of the deposited data

Results flagged for a closer look

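In 38 sets of 5 mice (each member in all and in resident macrophages, by genotype), 3 had a mouse set apart from the other 4 by more than 0.71 of the range, and chance gives about 1 in 20. WT mouse 5 had *Ccl2* at 1657 CPM in all macrophages, against 2334 to 2537 CPM in the other WT mice. WT mouse 3 had *Ccl9* at 432 CPM in resident macrophages, against 744 to 793 CPM. WT mouse 4, with 25 resident macrophages, had *Ccl24* at 259 CPM in them, against 511 to 593 CPM.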

How the results depend on the processing

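How many of all genes each alternative fit called was not counted, so the numbers of members below have no share to be set against. The number of members called kept within 1.5 times under the alternatives run, with these exceptions. For mutant against WT in resident macrophages (2 called), DESeq2, DESeq2-type size factors, the 5% mitochondrial limit and chemokine genes kept in the clustering each gave 1, the fit without a filter 4, and MULTIseqDemux, thinning to 2000 UMIs, Res-MGL1hi cells alone and the other resident cells alone each 0. Leaving out each mouse gave 1 to 2. In the other resident cells *Ccl2* changed sign (-0.032). In all macrophages 1 member was called without the inflammatory cells in place of 0. Without a filter, dilation against WT gave 5 in place of 0, aneurysm against dilation in resident macrophages 1 in place of 0, and the 4 other cell types 5 in place of 0. In these 4 types DESeq2 gave 1 and leaving out each mouse 0 to 1, where *Ccl3* in cDC2 ran from -1.07 without mouse 4 to 2.32 without mouse 5. Aneurysm against dilation in macrophages (2 called) gave 1 with chemokine genes kept in the clustering, 0 after thinning and 1 to 2 without each mouse. Res-MGL1hi against the other resident cells (6 called) gave 3 without the replicate block. Against Res-Txnip hi cells alone, an alternative chosen after seeing the data, as were the single-class fits, the fits without the 16 unnamed macrophages and those in mutant mice only, *Ccl6* (0.39) and *Ccl9* (0.30) changed sign. The cause was not tested. With the 5% mitochondrial limit no cluster was named Res-MGL1hi, so that comparison could not be fitted. Of 1286 alternative values for single genes, 1235 kept their direction where called and their side of the threshold. Low depth limits *Ccl5* and *Ccl17* in macrophages, and the 2 aneurysm mice limit every statement on aneurysm.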

Other observations

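*Ccl17* was chosen for a further look after its values were seen. No UMI of it was found among 4732840 UMIs in the macrophages of the 5 WT mice, where 3 counts would be 0.634 CPM. All 5 mutant mice held some (42 among 15723723 UMIs, 2.67 CPM over the group sum, 4.21 times that WT floor). This ratio of sums leaves out the spread between mice. Per mouse, the upper limits of counting error in WT were 2.96 to 7.64 CPM and the mutant values 1.44 to 3.63 CPM, so these ranges overlapped. The 42 UMIs lay in 25 of 1283 cells, 64.3% of them in 10 cells. B cells held 0 UMIs in WT mice and 8 UMIs (5.01 CPM over the group sum) in mutant mice, found in mouse 8 (2 UMIs) and mouse 10 (6 UMIs in 1 cell) and not in mice 6, 7 and 9. In macrophages the gene was not tested because it did not pass the filter on low counts.

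The 37 cells of the high-UMI B cell cluster held *Ccl2* at 2390 and *Ccl7* at 1209 CPM, against 56.7 and 29 CPM in the 561 B cells, at a median of 16758 against 5390 UMIs per cell.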
